A study of Mus musculus with 12 samples.

Results

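Keratins form the intermediate filaments of epithelial cells, and each filament pairs a type I with a type II keratin. In the mammary gland, Krt8 and Krt18, with Krt7 and Krt19, are the usual keratins of the luminal cells that line the ducts, and Krt5 and Krt14, with Krt15 and Krt17, those of the basal and myoepithelial layer around them. Krt6a is a type II keratin of hair follicles, wounds and stressed epithelium, and Krt23 is a type I keratin of simple epithelia that falls in neither class here. These 10 genes were taken by name and followed in all 12 RNA-seq samples. They were 10 of 23704 gene names in the Normal and Tumor files and of 23691 in the DMSO and C646 files. The first 4 are called luminal keratins and the second 4 basal keratins by convention, and the names were not used to choose samples or cells.

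The 4 groups of 3 replicates were compared in separate experiments, all from female mice of the FVB background at 12 weeks of age. Normal was wild-type gland, with abdominal and inguinal glands of 3 mice pooled in each replicate. Tumor was the thoracic gland tumor of 1 untreated heterozygous MMTV-PyVT mouse per replicate, in which the MMTV promoter, active mainly in mammary epithelium, drives the polyoma virus middle T antigen. DMSO and C646 were MMTV-PyVT tumors, the largest of each mouse, after injection of the solvent or of C646, an inhibitor of the acetyltransferase p300. The labels give 1 mg/kg for both of these groups. Tissue, gland position and pooling all differ between Normal and Tumor and cannot be told apart. Values are FPKM (fragments scaled to transcript length and to library size), so levels can be compared between genes. They were normalized separately in the 2 experiments, and tests were run within each one only. Read numbers were not in the files, so the depth behind a value is unknown. In bulk tissue, fewer cells of a type and less RNA per cell cannot be told apart.

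Transcripts of epithelium were present in every sample but at unequal levels. The summed FPKM of 10 pan-epithelial genes (Epcam, Cdh1, Cldn7 and others) ranged from 166 to 319.9 in Normal, from 1604 to 2209 in Tumor, from 1467 to 1476 in DMSO and from 1391 to 1540 in C646. Replicate 3 of DMSO stood apart from the other injected tumors. Its summed FPKM of 38 keratins outside the 10 was 505.1, against 7.474 to 15.66 in the other 5. Of 17 epidermis and hair follicle markers found, which include several of those keratins, 15 reached 1 FPKM in it and 1 was at 0, against 2 or 3 that reached 1 FPKM and 8 to 11 at 0 in the other 5. Fold changes and ratio differences that rest on this sample are given with and without it, and the likeness of gene profiles only with it.

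The 10 genes lie in the clustered keratin loci of GRCm38 (mm10), 5 on chromosome 15 and 5 on chromosome 11. On chromosome 15, Krt8 (chr15:101996698-102004482, minus strand) and Krt18 (chr15:102028180-102032027, plus strand) are separated by 23697 bp, and Krt18 is the only type I gene in that type II cluster. Krt7 (chr15:101411043-101430313, plus strand), Krt5 (chr15:101707070-101712898, minus strand) and Krt6a (chr15:101689910-101694307, minus strand) lie in the same cluster. Krt14 (chr11:100203162-100207548), Krt15 (chr11:100131758-100135928), Krt17 (chr11:100256217-100261029), Krt19 (chr11:100140810-100148665) and Krt23 (chr11:99477974-99493137), all on the minus strand, are type I genes. Krt15 and Krt19 are 4881 bp apart. Whole-gene spans are given because FPKM was summed over each gene.

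RefSeq promoter windows of GRCm38.p6 were available for 6 of the 10 genes. Those of Krt8 and Krt18 are shown because their levels followed each other most closely, and that of Krt5 as a basal keratin for contrast. Each is the 250 bases ahead of the RefSeq start, 5′ to 3′ on the gene's strand: chr15:102004343-102004592 for Krt8, chr15:102027966-102028215 for Krt18 and chr15:101712906-101713155 for Krt5. Capitals mark matches to TATAA or ATAAAA, letters of TATA-type elements, and to GCCNNNGGC, which AP-2 factors can bind.
Krt8: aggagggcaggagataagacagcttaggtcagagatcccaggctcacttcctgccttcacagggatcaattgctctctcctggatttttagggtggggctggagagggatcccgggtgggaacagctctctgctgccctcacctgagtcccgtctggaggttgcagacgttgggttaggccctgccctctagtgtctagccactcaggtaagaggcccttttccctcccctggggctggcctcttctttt
Krt18: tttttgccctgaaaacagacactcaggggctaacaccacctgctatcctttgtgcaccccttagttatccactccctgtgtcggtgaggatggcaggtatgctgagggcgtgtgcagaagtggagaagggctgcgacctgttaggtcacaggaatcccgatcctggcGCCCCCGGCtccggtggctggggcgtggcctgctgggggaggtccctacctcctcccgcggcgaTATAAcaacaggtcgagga
Krt5: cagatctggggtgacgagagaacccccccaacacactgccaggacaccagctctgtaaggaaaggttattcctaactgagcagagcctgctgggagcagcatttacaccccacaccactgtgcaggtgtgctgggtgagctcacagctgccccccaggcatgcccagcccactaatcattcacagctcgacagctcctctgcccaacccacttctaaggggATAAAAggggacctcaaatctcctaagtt
The Krt18 window held TATAA, with its first base 19 bases ahead of the RefSeq start, and GCCNNNGGC. The Krt5 window held ATAAAA, 29 bases ahead. The Krt8 window held none of these letters, nor GGGCGG or TGANTCA. The RefSeq starts of Krt8 (102004342) and Krt18 (102028216) lie inside the gene spans given above. The ends of their windows nearest the start, with the TATAA of Krt18, thus fall within those spans. Positions and absences hold for the RefSeq starts only. Both strands were searched, and ATAAAA can overlap TATAA by sharing bases, which did not occur in these windows. Of 32851 RefSeq promoter windows, 22.8% held TATAA, 17% ATAAAA, 13.7% GCCNNNGGC, 32.7% GGGCGG and 6.75% TGANTCA, so each match is a description of the letters and no more. The motifs were chosen after the windows were seen.

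In Tumor against Normal, Krt8, Krt18, Krt7 and Krt14 were higher by FPKM, and all 4 fell below 0 once samples were scaled to the pan-epithelial genes. On that scale Krt7 and Krt14 were called lower, and Krt8 and Krt18 were not called (limma, adjusted p = 0.346 and 0.217). By FPKM, these 4 of the 9 keratins tested passed the adjusted p of 0.05 as higher and 0 passed as lower. The background was 28.8% of 13031 genes called higher and 31.7% called lower, so differences were frequent over all genes, with 64.8% at an unadjusted p under 0.05. The same 4 keratins were higher without overlap between the groups and 0 lower, beside 33.1% and 35.8% of all genes. Without Normal replicate 1, 7 were higher without overlap, beside 34.9% of all genes. Krt19, Krt5 and Krt23, the additional ones, were not called in that run (limma, adjusted p = 0.0583, 0.0645 and 0.0651). Leaving out any other single sample gave 4 or 5 higher without overlap, and 1 lower without Tumor replicate 2. By class, 3 of 4 luminal keratins and 1 of 4 basal keratins were called higher, with median log2 fold changes of 2.17 and 0.28 beside -0.02 over all genes tested, and of -0.80 and -2.68 beside -3.02 under the pan-epithelial scaling. Krt6a did not pass the filter on low values, a level of 1 FPKM or more in 3 samples of an experiment, in either experiment.

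**Figure D1:**
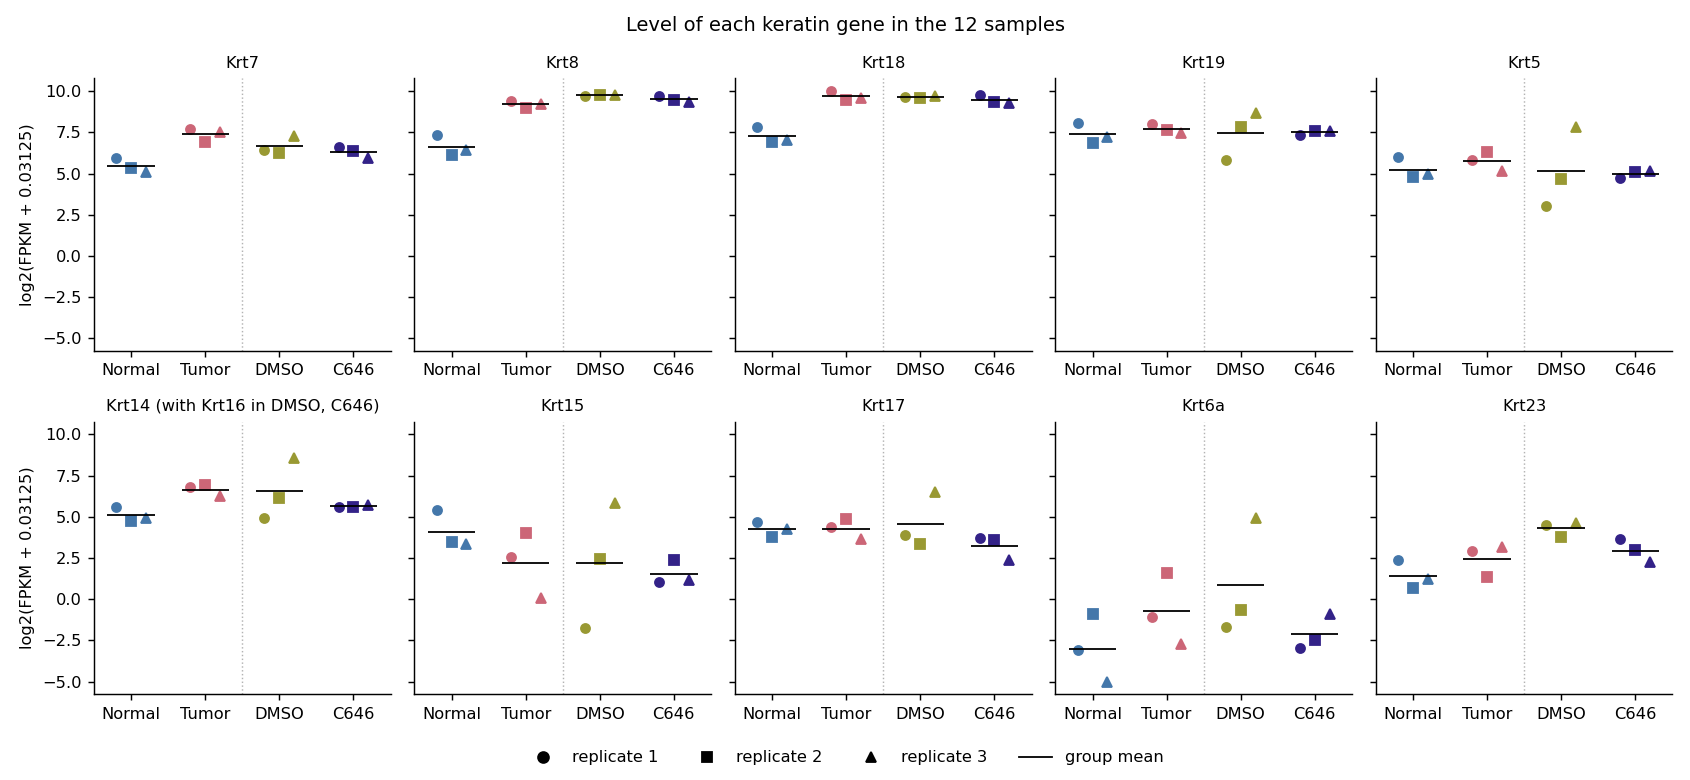
Level of each of the 10 keratins in every sample, as log2(FPKM + 0.03125) on the y axis and the 4 groups on the x axis, with symbols for replicates and bars for group means of 3; the dotted line separates experiments that were normalized separately. The Krt8 level reached 70 to 161.1 FPKM in Normal and 501.6 to 677.8 in Tumor. Once samples are scaled to pan-epithelial genes, its Tumor levels lie below its Normal levels, a difference that was not called (limma, adjusted p = 0.346). DMSO replicate 3 is the highest of its group for each of the 10 keratins, by the widest margins for the basal keratins and Krt6a.

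Krt8, the type II keratin of simple epithelia, was at 161.1, 70 and 88.01 FPKM in Normal replicates 1 to 3 and at 677.8, 501.6 and 605.3 in Tumor. The groups did not overlap, and the lowest Tumor level was above the highest Normal level. The log2 fold change was 2.57 ± 0.31 (SE, n = 3 per group; limma, adjusted p = 0.000393), a 5.92-fold difference. An exact permutation test of 3 against 3 cannot go below p = 0.1, the value Krt8 and the other 3 called keratins reached. Krt18, its type I partner, was at 227, 119.1 and 134.5 FPKM in Normal and at 1044, 708 and 768.3 in Tumor, also without overlap. Its log2 fold change was 2.43 ± 0.28 (SE, n = 3 per group; limma, adjusted p = 0.000328). Krt7, a type II keratin of ductal epithelium, was at 61.9, 40.21 and 34.79 FPKM in Normal and at 209.4, 120.7 and 182.7 in Tumor. The Krt7 groups were separate as well, with a log2 fold change of 1.91 ± 0.28 (SE, n = 3 per group; limma, adjusted p = 0.000953).

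Krt19, a type I keratin without the usual tail domain, differed from the other luminal keratins. It was at 269.9, 118 and 150 FPKM in Normal and at 259.7, 198.6 and 174.4 in Tumor. These ranges overlapped, and the log2 fold change of 0.30 (95% confidence interval -0.44 to 1.05; limma, adjusted p = 0.432) did not pass. In Normal the Krt19 level, 179.3 ± 80.1 FPKM (SD, n = 3), was the highest mean of the 10. Krt18 was at 160.2 ± 58.4 and Krt8 at 106.4 ± 48.2. These SDs are between samples, and replicate 1 was the highest for each of these genes. Within each Normal sample Krt19 was above Krt8. Its order with Krt18 was not the same throughout, with 118 FPKM for Krt19 and 119.1 for Krt18 in replicate 2. In Tumor the order by mean was Krt18 at 840.2 ± 179, Krt8 at 594.9 ± 88.6, Krt19 at 210.9 ± 43.9 and Krt7 at 170.9 ± 45.5. Krt19 and Krt7 were within each other's spread there, and Krt8 and Krt18 lay well above them.

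Among the basal keratins, Krt14, the type I partner of Krt5, was the only member called in Tumor against Normal. It was at 49.13, 26.4 and 31 FPKM in Normal and at 112.3, 121.6 and 75.35 in Tumor. Every Tumor level was above every Normal level on this scale, with a log2 fold change of 1.56 ± 0.28 (SE, n = 3 per group; limma, adjusted p = 0.00231), which became -1.41 under scaling to the pan-epithelial genes. Krt5 was at 63.32, 27.67 and 30.87 FPKM in Normal and at 55.75, 79.41 and 35.73 in Tumor. The Krt5 groups overlapped, and the log2 fold change was 0.52 (95% confidence interval -0.40 to 1.43; limma, adjusted p = 0.283). Krt17, a type I keratin of basal cells and skin appendages, was at 25.98, 13.46 and 18.93 FPKM in Normal and at 20.66, 28.64 and 12.35 in Tumor. Its log2 fold change of 0.05 (95% confidence interval -0.78 to 0.87; limma, adjusted p = 0.914) was close to 0, and its sign changed when single samples were left out.

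Krt15, a type I keratin of basal and progenitor-rich epithelium, was at 42.02, 11.09 and 9.988 FPKM in Normal and at 5.827, 16.27 and 1.039 in Tumor. Tumor replicate 2 lay inside the Normal range and the other Tumor samples below it. The log2 fold change of -1.84 (95% confidence interval -4.17 to 0.50; limma, adjusted p = 0.147) did not pass, whereas without Tumor replicate 2 it was -2.74 and passed (limma, adjusted p = 0.034). It was -0.78 without Tumor replicate 3 (limma, adjusted p = 0.391) and -1.17 without Normal replicate 1, so its size rested on single samples. Krt23 was at 5.097, 1.562 and 2.278 FPKM in Normal and at 7.597, 2.471 and 8.771 in Tumor. Its groups overlapped, with a log2 fold change of 1.05 (95% confidence interval -0.33 to 2.43; limma, adjusted p = 0.158) that became 1.62 without Tumor replicate 2 (limma, adjusted p = 0.0254). Krt6a was listed at 0.08838, 0.4966 and 0 FPKM in Normal and at 0.4403, 2.977 and 0.1226 in Tumor, near the floor of the measurement. Tumor replicate 2 was the highest of the 6 samples for Krt5, Krt14, Krt17 and Krt6a.

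**Figure D2:**
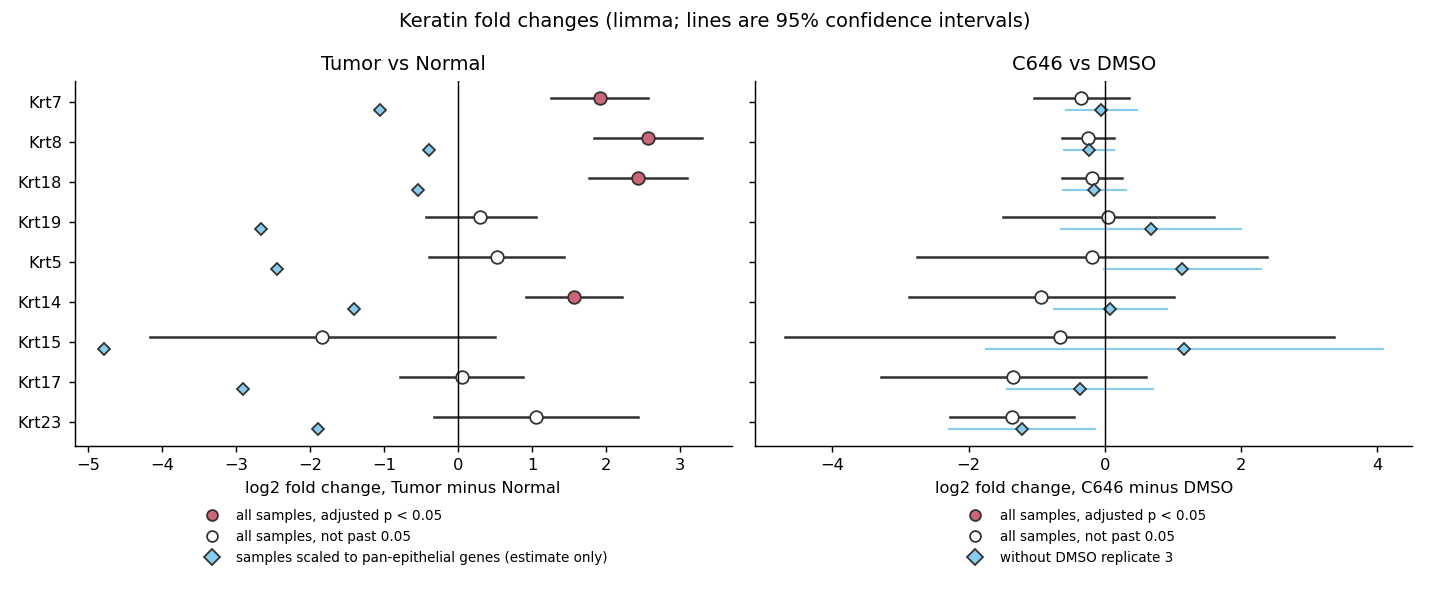
Log2 fold change of the 9 tested keratins, with lines for 95% confidence intervals (limma), for Tumor minus Normal on the left and C646 minus DMSO on the right; diamonds are the estimates after scaling to the pan-epithelial genes (left) or without DMSO replicate 3 (right). On the left Krt7, Krt8, Krt18 and Krt14 pass above 0. Every diamond there is below 0, those of Krt8 and Krt18 without being called. On the right no circle passes, and the diamonds of Krt5, Krt14 and Krt15 are on the other side of 0.

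The tissues differed in their level of epithelium-linked transcripts. All 10 pan-epithelial genes were called higher in Tumor, beside 28.8% of all genes, with a mean log2 fold change of 2.97. For example, Cldn7, a tight junction claudin, had a mean of 26.61 FPKM in Normal and 280.9 in Tumor. Relative to the mean log2 level of those 10 genes, Krt8 was at 3.10, 2.84 and 2.82 in Normal and at 2.53, 2.36 and 2.65 in Tumor. Krt19 was at 3.84, 3.59 and 3.59 in Normal and at 1.14, 1.03 and 0.86 in Tumor on that scale. On that scale both lay lower in every Tumor sample than in any Normal sample, whereas their FPKM differences were above 0, and the gap was wider for Krt19.

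With the samples scaled in that way, log2 fold changes among the luminal keratins were -0.40 for Krt8 and -0.54 for Krt18, neither called. They were -1.06 for Krt7 and -2.66 for Krt19. They were -1.41 for Krt14, -2.45 for Krt5, -2.91 for Krt17 and -4.78 for Krt15 among the basal keratins, and -1.89 for Krt23. The scaling moved the median of all genes to -3.02, and relative to that shift only Krt15 was lower. The part of epithelial content in the FPKM differences was not tested.

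Ratios between keratins of a sample do not depend on its scaling. The log2 ratio of Krt8 plus Krt18 to Krt5 plus Krt14 was 1.79, 1.81 and 1.85 in Normal and 3.36, 2.59 and 3.63 in Tumor. The Normal mean was 1.81 ± 0.03 (SD, n = 3), and all Tumor samples lay above all Normal samples, at 3.19 ± 0.54. Each Normal replicate pooled 3 mice and each Tumor replicate was 1 mouse, so these SDs do not measure the same spread. The luminal keratins made up 79.5% to 81.4% of the 10 genes' summed FPKM in Normal and 85.9% to 92.8% in Tumor. Within the luminal class, the log2 ratio of Krt19 to Krt8 was 0.74, 0.75 and 0.77 in Normal and -1.38, -1.34 and -1.80 in Tumor. Krt19 was thus above Krt8 in each Normal sample and below it in each Tumor sample. The share of Krt19 in the 10 genes' sum was 27.6% to 30% in Normal and 9.36% to 11.2% in Tumor.

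Partners of the same filament kept unlike balances. The log2 ratio of Krt8 to Krt18 was -0.62 ± 0.14 in Normal and -0.49 ± 0.14 in Tumor (SD, n = 3), a difference within the spread. That of Krt5 to Krt14 was 0.37, 0.07 and -0.01 in Normal and -1.01, -0.62 and -1.08 in Tumor. Krt5 was close to or above Krt14 in Normal and below it in every Tumor sample. The log2 ratio of Krt15 to Krt5 was -0.59, -1.32 and -1.63 in Normal and -3.26, -2.29 and -5.10 in Tumor, also without overlap. No p is given for these ratios, which combine genes already described.

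**Figure D3:**
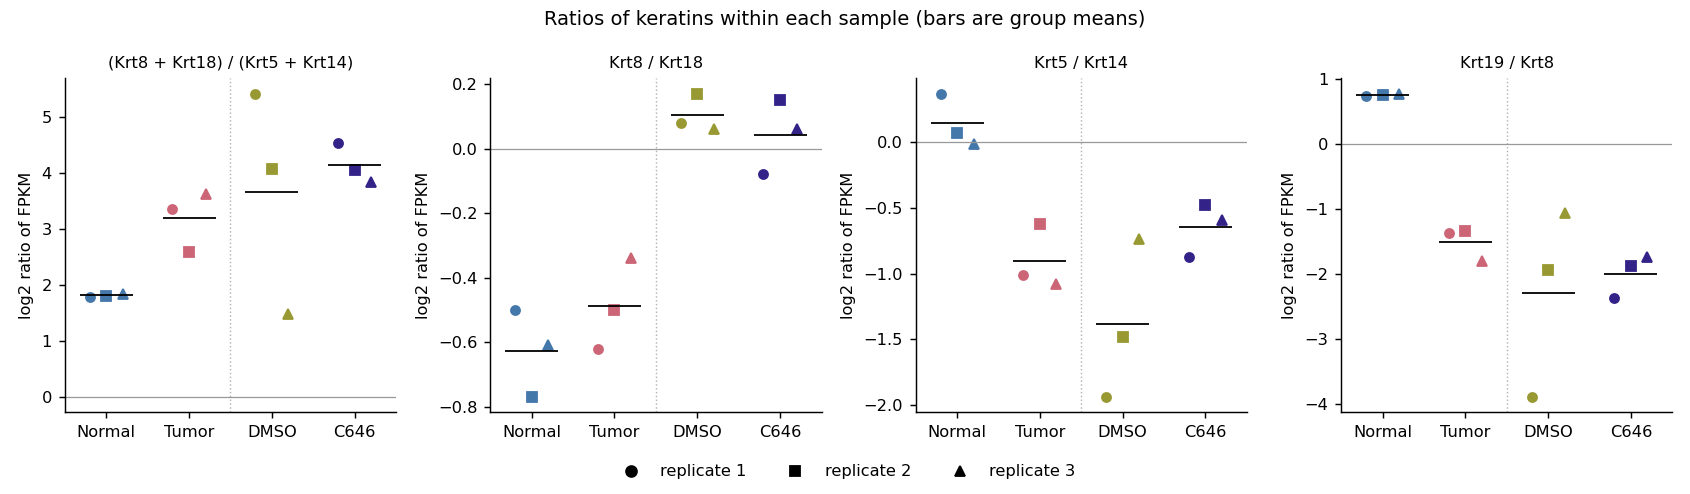
Log2 ratios of FPKM between keratins within each of the 12 samples, 1 panel per ratio, with symbols for replicates and bars for group means of 3. Normal replicates, each a pool of 3 mice, sit at 1.79 to 1.85 for Krt8 plus Krt18 over Krt5 plus Krt14. They sit at 0.74 to 0.77 for Krt19 over Krt8. DMSO replicates spread from 1.49 to 5.42 in the first panel.

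Other genes of the epithelial layers did not all follow the keratins. Over all genes tested, 28.8% were called higher and 31.7% lower. Of 15 luminal markers tested, 9 were called higher and 5 lower in Tumor, with a median log2 fold change of 1.52. The lower part is near the share over all genes. The largest differences were in Foxa1, a transcription factor of hormone-sensing cells, with means of 9.549 FPKM in Normal and 0.533 in Tumor, and in Cited1, a transcriptional co-regulator, with 62.81 and 5.713. Of 16 myoepithelial and basal markers, 2 were called higher and 9 lower, with a median of -1.28. Smooth muscle genes led the lower ones, with Myh11, a myosin heavy chain, at 14 and 0.8476 FPKM and Cnn1, a calponin, at 13.6 and 1.205. Trp63, the transcription factor of basal epithelium, was picked after its values were seen. It was 1 of the 2 called higher in that list, against 9 lower. Its mean was 2.907 FPKM in Normal and 7.101 in Tumor (log2 fold change 1.31, limma, adjusted p = 0.0186). Of 16 genes of the junctions that anchor keratin filaments, 10 were called higher and 1 lower, with a median of 1.33. Itgb4, the hemidesmosome integrin, had means of 8.453 and 122.8 FPKM, and the desmocollin Dsc3 2.351 and 0.09907. Directions in these lists hold for FPKM, and under scaling to pan-epithelial genes the median of all genes moves as given above.

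Markers of other tissues differed as well, with medians of -7.05 for adipocyte, -6.28 for leukocyte and 6.30 for skeletal muscle genes on the log2 scale. In Tumor, 10 of 10 adipocyte, 10 of 10 leukocyte, 7 of 8 fibroblast and 6 of 6 endothelial markers were called lower, beside 31.7% of all genes. Of skeletal muscle genes 7 of 7, and of milk protein genes 3 of 7, were called higher, beside 28.8% of all genes. The summed adipocyte level ran from 27371.9 to 34665.5 FPKM in Normal and from 206.2 to 2667 in Tumor, and that of skeletal muscle from 31.05 to 101.4 and from 1600 to 4467. Among epidermis and hair follicle markers, only 4 were tested, with 1 called higher and 1 lower. The summed level of the 17 found ran from 22.95 to 90.14 FPKM in Normal and from 41.2 to 94.93 in Tumor. Of these 17, 8 reached 1 FPKM in Normal replicates 1 and 2 and in Tumor replicate 2. In Normal replicate 3 and Tumor replicate 1 it was 3, and in Tumor replicate 3 it was 2. The part of these tissues in the keratin values was not tested.

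Within the injected tumors, no keratin was called between C646 and DMSO. limma called 0 of 12083 genes in either direction (0% background), with 384 genes, 3.18%, at an unadjusted p under 0.05. Krt8 and Krt23 were lower in every C646 sample than in any DMSO sample, beside 4.52% of all genes lower without overlap and 4.04% higher. After quantile normalization Krt8 overlapped, at a log2 fold change of -0.05, and Krt23 did not. Without DMSO replicate 1, Krt8, Krt19, Krt14, Krt15 and Krt23, 5 of 9, were lower without overlap, beside 8.55% of all genes. The medians over 4 luminal and 4 basal keratins were -0.21 and -0.79 on the log2 scale, and -0.01 over all genes tested. Without DMSO replicate 3 they were -0.10 and 0.61, so the sign of the basal median turned, and without DMSO replicate 1 they were -0.35 and -1.71.

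Krt8 was at 848.8, 866.7 and 874.2 FPKM in DMSO and at 837.8, 713.6 and 648.7 in C646. The DMSO levels were close together and the highest C646 level lay just below them. The log2 fold change was -0.24 (95% confidence interval -0.62 to 0.13; limma, adjusted p = 0.99). Krt18 was at 803.4, 772.4 and 839.5 FPKM in DMSO and at 887.7, 644 and 622 in C646, with overlap. Its log2 fold change was -0.18 (95% confidence interval -0.62 to 0.25; limma, adjusted p = 0.99). For both partners the interval leaves out a change of 1 on the log2 scale in either direction. Krt7 was at 88.26, 75.87 and 152.7 FPKM in DMSO and at 97.81, 82.95 and 61.38 in C646. Its log2 fold change of -0.35 was -0.05 without DMSO replicate 3. Krt23 was at 23.1, 13.82 and 24.35 FPKM in DMSO and at 12.47, 7.768 and 4.683 in C646. The groups were separate, with a log2 fold change of -1.36 (95% confidence interval -2.27 to -0.45; limma, unadjusted p = 0.00951, adjusted p = 0.99), and -1.21 without DMSO replicate 3.

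The basal keratins spread widely among the DMSO tumors, and their differences moved with replicate 3 and with replicate 1. Krt5 was at 8.009, 25.63 and 229 FPKM in DMSO and at 26.39, 34.2 and 35.17 in C646. The highest DMSO level was 28.6 times the lowest, against 1.33 times in C646. Over all samples the log2 fold change was -0.19 (95% confidence interval -2.76 to 2.38). Without DMSO replicate 3 it was 1.14 (95% confidence interval -0.01 to 2.29; limma, adjusted p = 0.798) and every C646 level was above the remaining DMSO levels, as for 9.86% of all genes. Without DMSO replicate 1 it was -1.27. Krt14, in these files a row shared with Krt16, a keratin of stressed epidermis, was at 30.7, 71.63 and 382.2 FPKM in DMSO and at 48.15, 47.73 and 53 in C646. The C646 samples lay within the DMSO range, and the log2 fold change was -0.93 over all samples, 0.08 without DMSO replicate 3 and -1.74 without DMSO replicate 1.

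Krt15 was at 0.2719, 5.373 and 57.63 FPKM in DMSO and at 2.048, 5.122 and 2.21 in C646. It had the widest DMSO range of the 10 genes, with a highest level 212 times the lowest. That lowest level, 0.2719 FPKM, is under 1 FPKM, so the size of this ratio is uncertain. The log2 fold change was -0.66 over all samples and 1.17 without DMSO replicate 3 (95% confidence interval -1.74 to 4.08). It was -2.61 without DMSO replicate 1 (95% confidence interval -4.93 to -0.30; limma, adjusted p = 0.965). Krt17 was at 14.75, 10.04 and 92.18 FPKM in DMSO and at 13.33, 12.19 and 5.165 in C646, with log2 fold changes of -1.34 and, without that sample, -0.37. Krt19 was at 56.84, 226.6 and 417.9 FPKM in DMSO and at 161.2, 193.3 and 193.1 in C646. The highest DMSO level of Krt19 was 7.35 times the lowest, against 1.03 times for Krt8 and 1.09 times for Krt18. It lay in replicate 3, as for all of the 10 genes. Its log2 fold change was 0.05 over all samples, 0.68 without DMSO replicate 3 and -0.76 without DMSO replicate 1. Krt6a was at 0.2776, 0.5959 and 30 FPKM in DMSO and at 0.09651, 0.152 and 0.5021 in C646. With that replicate left out, adjusted p values of the 9 tested keratins ran upward from 0.798, and 0 genes of 12288 were called in either direction (limma; 611, or 4.97%, at an unadjusted p under 0.05).

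Among the other keratins, those of skin and hair marked the same sample. Krt73, a keratin of the hair follicle inner root sheath, was at 139.2 FPKM in DMSO replicate 3 and listed at 0 in the other 5 injected tumors. Krt1 and Krt10, the pair of differentiating epidermis, were at 45.37 and 58.59 FPKM in it. Krt10 ran from 1.805 to 3.916 FPKM in the other injected tumors. Krt79, a keratin of the follicle and sebaceous duct, was at 94.44 FPKM there and Krt27, another inner root sheath keratin, at 30.96. Krtdap, a keratinocyte protein, was at 58.98 FPKM in it and listed at 0 in the other 5. Of the lists, the summed myoepithelial and basal markers ran from 88.71 to 304.7 FPKM in DMSO and from 105.2 to 119.1 in C646, with 0 of 14 tested called. The pan-epithelial sums in DMSO differed by far less, as given above. The part of skin transcripts in the basal keratin levels of this sample was not tested.

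**Figure D4:**
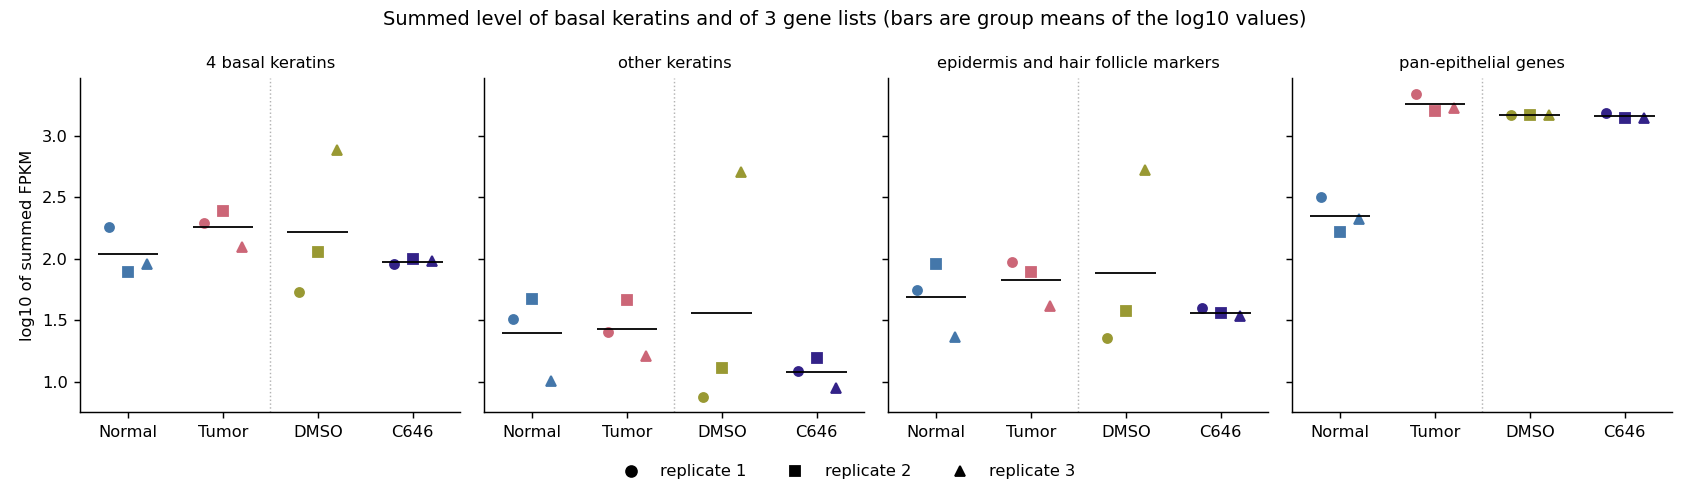
Log10 of the summed FPKM in each of the 12 samples for the 4 basal keratins, the keratins outside the 10, 17 epidermis and hair follicle markers and 10 pan-epithelial genes, with symbols for replicates and bars for group means of the log10 values. DMSO replicate 3 (triangle) is the highest point of the first 3 panels, with 505.1 FPKM of other keratins and 524 of skin markers, and lies with its group in the fourth; Normal pan-epithelial sums are 166 to 319.9.

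The make-up of the keratin transcripts showed the same sample. Luminal keratins held 73.7% of the 10 genes' summed FPKM in DMSO replicate 3, and 95.9% and 93.9% in the other DMSO tumors. In C646 they held 95.1%, 93.8% and 93.8%. The log2 ratio of Krt8 plus Krt18 to Krt5 plus Krt14 was 5.42, 4.07 and 1.49 in DMSO and 4.53, 4.05 and 3.85 in C646. The difference of group means, C646 minus DMSO, was 0.48 over all samples and -0.60 without DMSO replicate 3, so its sign rests on that sample. The log2 ratio of Krt8 to Krt18 stayed at 0.10 ± 0.06 in DMSO and 0.04 ± 0.12 in C646 (SD, n = 3).

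**Figure D5:**
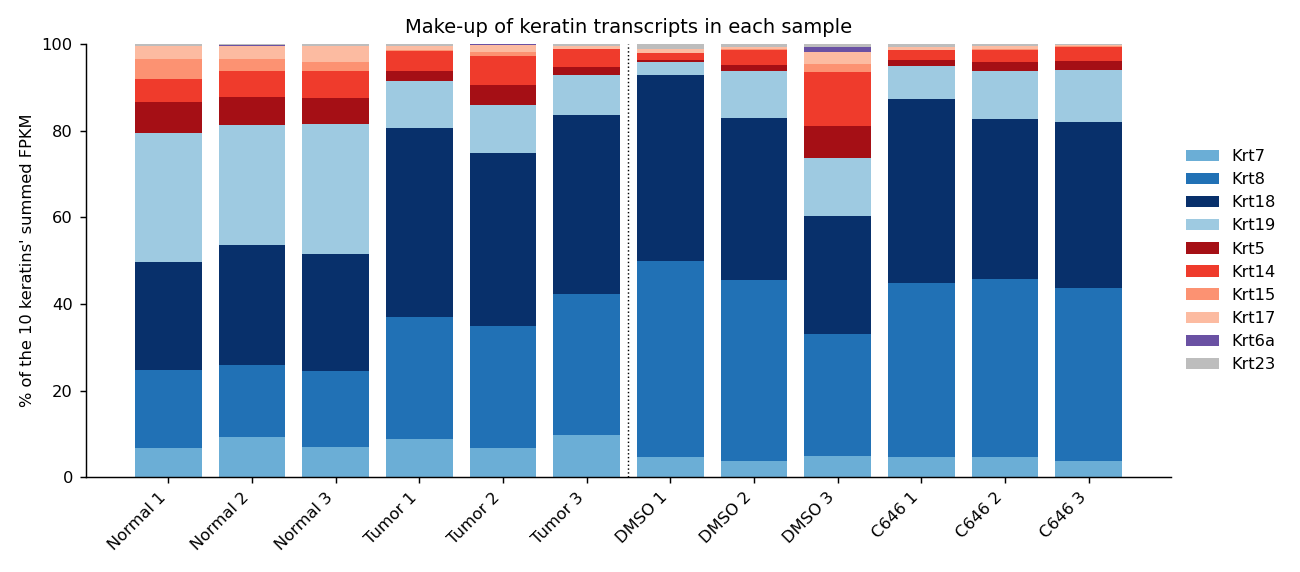
Percent of the 10 keratins' summed FPKM held by each gene in each of the 12 samples, as stacked bars from 0 to 100, luminal keratins in blue, basal keratins in red, Krt6a in purple and Krt23 in grey. The Krt19 band is 27.6% to 30% in Normal and 9.36% to 11.2% in Tumor, and the red bands hold 24.6% in DMSO replicate 3 against 2.87% to 5.88% in the other injected tumors.

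Normal and Tumor were normalized apart from the injected tumors. The keratins outside the 10 summed to 10.05 to 46.62 FPKM in Normal and 16.17 to 46.13 in Tumor. Of these, 4 of 40 were tested in Tumor against Normal, with 1 called higher and 1 lower, and 3 of 38 in C646 against DMSO, with 0 called. Krt79 was the higher one, with means of 5.626 FPKM in Normal and 13.56 in Tumor. Krt16, listed in a row of its own in the Normal and Tumor files, was at 0 in all 3 Normal samples. It was at 0.5824, 3.93 and 0.506 FPKM in Tumor, small beside Krt14. In the DMSO and C646 files its part of the row shared with Krt14 is unknown. The Krt14 levels, ratios and basal shares of those groups include it.

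Across the 12 samples, centred within each experiment, Krt18 was the gene closest to Krt8 of 11482 genes compared. The measure was the root mean square difference of log2 values, 0.11 for Krt18 beside a median of 0.97 over all genes. Krt7 was at 0.36 and Krt19 at 1.02, beyond that median. The closest genes other than keratins of the 10 were Serpinb5, the serpin maspin, at 0.15, 2310030G06Rik at 0.15 and Cblc, a ubiquitin ligase of epithelial cells, at 0.17. For Krt14, Krt5 ranked 8 of 11483 at 0.54, and Ahr, the aryl hydrocarbon receptor, at 0.44, Dysf, the membrane repair protein dysferlin, at 0.46, and Ano9, an anoctamin, at 0.48 were closest. Krt14, Krt5, Ahr, Dysf and Ano9 were each highest of the injected tumors in DMSO replicate 3. Ahr was at 33.7 FPKM there, Dysf at 63.11 and Ano9 at 14.44, against 13.5, 21.47 and 5.53 at most in the others. No ranking was made without that sample. The points share libraries and the group differences already described, so these are descriptions without a test.

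Some values carry a limit from shared sequence. Of 100-base windows of the annotated transcript, 34% of Krt6a windows occur in other genes, mainly Krt6b, and 16.9% of Krt8 windows in the pseudogene Krt8-ps. The shares are 2.88% for Krt14, with Krt16, and 2.38% for Krt5, and 0 for the other 6 genes. Krt7, Krt8, Krt5 and Krt6a also overlap annotated genes on the opposite strand, which the unstranded libraries cannot separate.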

How the data were processed

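Poly-A RNA of 12 mammary samples was sequenced from unstranded libraries. The authors trimmed the reads, mapped them to mm10 with TopHat2 2.1.1 and deposited FPKM per gene from Cufflinks 2.2.1, 1 table per sample. FPKM carries no read count, so the depth is unknown and no counting interval is given. Rows without a name (1837 in each Normal and Tumor file, 0 in the others) were left out and rows of the same name summed. Krt14 took the row joined with Krt16 where it had none of its own. The 10 genes and all gene lists were chosen with earlier results of these data known.

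The test was limma's moderated linear model (limma 3.58.1, R 4.3.3, two-sided, variance trend) of log2(FPKM + 0.03125). It covered genes that reached 1 FPKM in 3 or more of 6 samples, with Benjamini-Hochberg adjustment over all genes tested and a threshold of 0.05. Such a fold change understates the change of low genes. Only Normal with Tumor and DMSO with C646 were fitted. Single values were compared with a two-sided exact permutation test. The script was tested on simulated data. The p-values set each difference against the spread between these samples. For Tumor against Normal that spread combines Normal replicates of 3 mice each with Tumor replicates of 1 mouse each. Genes named from a list were the pair with the largest Tumor against Normal difference among those tested, the 5 other keratins with the highest group mean, and the 3 genes closest to Krt8 and to Krt14. Of these, only those that bear on a result are named. Alternatives were pseudocounts of 1 and 0.25, no filter or 5 FPKM, median ratio, quantile and pan-epithelial scaling, a replicate block, the highest row of a repeated name, limma without trend and leaving out each sample. Gene positions came from GENCODE M21 and promoter windows from RefSeq on GRCm38.p6. Other steps ran in Python 3.11.15 (pandas 2.3.3, numpy 2.4.6, scipy 1.17.1, matplotlib 3.10.9).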

Additional observations from a re-analysis of the deposited data

How the results depend on the processing

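Of the alternatives, scaling to the pan-epithelial genes changed the most for Tumor against Normal: 178 genes were called higher and 12828 lower, and 0 and 7 of the 9 keratins. The log2 fold changes were then -1.06 for Krt7, -0.40 for Krt8, -0.54 for Krt18, -2.66 for Krt19, -2.45 for Krt5, -1.41 for Krt14, -2.91 for Krt17 and -1.89 for Krt23, turned from above 0, and -4.78 for Krt15. Adjusted p was 0.346 for Krt8 and 0.217 for Krt18, the 2 not called. This follows from the scaling, which moves the median of all genes to -3.02. Quantile normalization moved that median to 0.12 and Krt23 to 1.54 (limma, adjusted p = 0.0472). Leaving out single samples gave 4 to 5 keratins higher and 0 to 1 lower, the 1 being Krt15 without Tumor replicate 2, where Krt23 was also called, as higher. Krt17 was -0.19 without Normal replicate 2 and -0.23 without Tumor replicate 2, against 0.37 at most.

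For C646 against DMSO, leaving out single samples gave 0 to 1 genes higher (1 without C646 replicate 3) and 0 to 11 lower (11 without DMSO replicate 2), no keratin among them. Krt19 was -0.76 without DMSO replicate 1 and at most 0.68, and without DMSO replicate 1 Krt5 was -1.27, Krt14 -1.74 and Krt15 -2.61. Without DMSO replicate 3, Krt5 was 1.14, Krt14 0.08 and Krt15 1.17, and with pan-epithelial scaling too, an alternative chosen after seeing the data, 1.16, 0.10 and 1.19. The luminal to basal log2 ratio difference ran from -0.60 (without DMSO replicate 3) to 1.36, and that of Krt8 to Krt18 from -0.11 to 0.00 (without C646 replicate 1). The cause was not tested for these.

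The labels give no pairing by replicate number. Same-numbered deviations from group means correlated at -0.038, -0.098 and 0.010 for Tumor with Normal, where 1 of 6 samples correlated best with its own number. They correlated at 0.175, 0.070 and 0.109 for C646 with DMSO, where 4 of 6 did. Whether the injected tumors were paired was not tested. With the replicate block, 3439 genes were higher and 3827 lower in Tumor, Krt23 passed at 1.05 (limma, adjusted p = 0.0442), and 0 genes were called for C646. The log2 fold changes of single keratins, the counts called and the 3 ratios tracked kept their direction and call under the other alternatives run. Class medians are outside that statement: they turned below 0 under pan-epithelial scaling in Tumor, and the basal median turned to 0.61 without DMSO replicate 3. With unknown depth, levels under 1 FPKM, as for Krt6a, support no order.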

Other observations

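The other keratins of single samples outside DMSO replicate 3 fell in unlike sets, and were picked after their values were seen. Normal replicate 1 held inner root sheath keratins of hair, with Krt71 at 7.109 FPKM, Krt25 at 5.598 and Krt27 at 4.089, while Krt1 was at 0.1379. Normal replicate 2 held epidermal keratins, with Krt10 at 18.42 FPKM, Krt77 at 7.702 and Krt1 at 4.331, and listed Krt25 and Krt27 at 0. Tumor replicate 2 held Krt73 at 8.595 FPKM and Krt28 at 2.037. Krt77 was listed at 0 in DMSO replicate 3, where Krt1 was at 45.37 FPKM.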
